A study of Mus musculus with 7 samples.

Results

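In all, 10 genes of the follicular T cell programme were followed in regulatory T cells with floxed Id2 and Id3 alleles: Cxcr5, Bcl6, Sh2d1a, Il21, Ascl2, Maf, Pou2af1, Angptl2, Slamf6 and Cebpa. They were taken by gene symbol, and all 10 were found among the 39179 genes of the authors' deposited table. The cells were sorted as CD4+TCRb+CD25hi Foxp3+ from the lymph nodes of C57BL/6 animals aged 3 weeks, and messenger RNA was sequenced. Double-knockout (dKO) mice are labelled Id2fl/flId3fl/flFoxp3cre, with both alleles of both genes floxed and Cre recombinase made where Foxp3 is expressed. Control mice of the numbered libraries are labelled Id2fl/+Id3fl/+Foxp3cre, so they carry the same Cre and may have lost 1 allele of each gene in the sorted cells. The replicated comparison holds 3 dKO and 2 control libraries, deposited as group means. A further pair of libraries, 1 titled control and 1 titled dKO, has genotype tags that go against the titles, and they are named by title below, as the libraries labelled control and labelled dKO. No label says that libraries came from separate animals. The control libraries differ in Y-linked reads, given below, so they are not repeats of 1 sample, while the spread between the dKO libraries that enters the p-values may be technical.

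Follicular regulatory T cells are Foxp3-expressing cells that enter B cell follicles, where they restrain follicular helper T cells and the germinal centre reaction. Entry depends on CXCR5, the receptor for the follicular chemokine CXCL13, and the programme needs the repressor BCL6 and signals through the adaptor SAP, the product of Sh2d1a. Id2 and Id3 bind E proteins and keep them from DNA, and E proteins bind the short E-box motif CANNTG. In a bulk sample, fewer cells of a type and less RNA per cell cannot be told apart.

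The sequences just before the start of transcription are shown for the called genes that have an entry in the RefSeq promoter table (GRCm38.p6), because E-boxes are the motif that E proteins read. Of the 10 genes, 7 matched that table, and Cxcr5, Sh2d1a and Maf did not. Each line gives the 250 bases before the start, 5′ to 3′ on the gene's strand, with every CANNTG in capitals. Cebpa, which rose in dKO (chr7:35119043-35119292, plus strand), had none, and Ascl2 (chr7:142969265-142969514, minus strand), Pou2af1 (chr9:51213440-51213689, plus strand) and Angptl2 (chr2:33215711-33215960, plus strand) fell.
Cebpa: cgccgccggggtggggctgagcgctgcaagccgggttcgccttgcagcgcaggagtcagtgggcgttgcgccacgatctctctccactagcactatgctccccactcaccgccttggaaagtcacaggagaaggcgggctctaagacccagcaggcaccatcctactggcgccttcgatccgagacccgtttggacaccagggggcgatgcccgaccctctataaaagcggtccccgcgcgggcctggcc
Ascl2: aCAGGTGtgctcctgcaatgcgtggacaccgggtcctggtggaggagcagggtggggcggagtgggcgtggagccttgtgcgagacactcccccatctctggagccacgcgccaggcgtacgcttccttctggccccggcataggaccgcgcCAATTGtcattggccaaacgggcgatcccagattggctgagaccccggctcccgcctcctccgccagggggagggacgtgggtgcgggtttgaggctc
Pou2af1: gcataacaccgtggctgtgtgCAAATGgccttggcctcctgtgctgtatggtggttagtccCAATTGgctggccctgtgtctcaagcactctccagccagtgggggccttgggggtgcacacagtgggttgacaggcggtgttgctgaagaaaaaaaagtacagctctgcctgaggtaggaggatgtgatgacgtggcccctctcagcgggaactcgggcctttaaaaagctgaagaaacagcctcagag
Angptl2: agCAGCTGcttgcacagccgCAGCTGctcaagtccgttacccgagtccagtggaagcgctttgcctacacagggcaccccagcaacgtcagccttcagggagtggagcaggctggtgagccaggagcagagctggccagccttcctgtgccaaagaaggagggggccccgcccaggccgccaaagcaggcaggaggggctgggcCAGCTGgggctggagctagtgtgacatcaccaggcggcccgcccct

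The Ascl2 and Pou2af1 windows each held 2 E-boxes and that of Angptl2 held 3. At least 1 E-box stood in 66.2% of the 32851 promoter windows of that length in the table, at least 2 in 31.8% and at least 3 in 12.2%. All 3 E-boxes of Angptl2 had the letters CAGCTG, at -248, -230 and -46 from the RefSeq start. That start was not found in a transcript, as was also so for Pou2af1, Slamf6 and 1 of the starts of Bcl6. The Angptl2 window ends at 33215960, before the gene's start at 33216069 in the authors' deposited table. CAGCTG was found in 13.0% of all windows, and 0.119% held it 3 times or more. Ascl2 had 1 CAGGTG at -249, a form that 17.2% of windows held on either strand. Among the genes that were not called, the Il21 window had 2 E-boxes, the windows of Slamf6 and of the upstream start of Bcl6 had 1 each, and the other start of Bcl6 had 0. CATCTG, searched on both strands, was in the Il21 window and in 14.4% of all windows. The octamer ATTTGCAT, the motif of the factors that the Pou2af1 product joins, was in none of the windows of these 7 genes and in 1.60% of all windows. These matches describe letters in a window and no binding was measured.

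Of the targeted genes, Id2 fell and Id3 did not pass in the replicated comparison, and both were still read in the pair, Id3 at a higher level in the library labelled dKO. In the authors' deposited table, Id2 had means of 783 scaled counts in control and 61.1 in dKO (log2 -3.68, adjusted p 1.48e-08), and Id3 had 1376 and 891 (adjusted p 0.209). Scaled counts are reads divided by a size factor per library. In the pair, Id2 stood at 18.6 FPKM in the library labelled control and 9.69 FPKM in the library labelled dKO, and Id3 at 160 and 221 FPKM. A direction drawn from the pair therefore rests on its titles, and whether the counted reads fall outside the deleted parts is not stated in the labels. The group means summed to 3.90e+07 scaled counts in control and 3.99e+07 in dKO. Because 1 read is worth a fixed step in each library, reads per library could be recovered for low genes. The size factors were 1.29 (control library A) and 1.09 (control library B) in control and 0.929, 0.910 and 0.860 in dKO. The control libraries differed in Y-linked reads, with 285 of Kdm5d and 316 of Uty in control library A and 3 and 12 in control library B.

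Opposite movements were seen within the programme. The homing receptor Cxcr5 and the transcription factor Cebpa rose more than 3-fold in dKO, while Maf, Pou2af1, Angptl2 and Ascl2 fell. Bcl6, Sh2d1a, Slamf6 and Il21 did not pass the authors' test. Called means an adjusted p under 0.05 in the DESeq test of the authors' deposited table. Of the 10 genes, 2 rose and 4 fell there, against 3.38% of all 31641 tested genes that rose and 3.18% that fell. All 10 had a mean of at least 10 scaled counts over both groups, and among the 15446 genes at that level 6.8% rose and 6.48% fell. For the gene lists below, the shares over all tested genes apply where every gene of a list is counted. The shares of 6.8% and 6.48% apply only to list genes with a mean of at least 10. Several lists hold genes under that level, and the shares are repeated beside some lists only. A few called genes are not read as a result about a list. The median log2 fold change of the 10 was -0.21, beside -0.01 over those 15446 genes. The genes were put forward with earlier results of these data known, so these shares are a description.

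**Figure D1:**
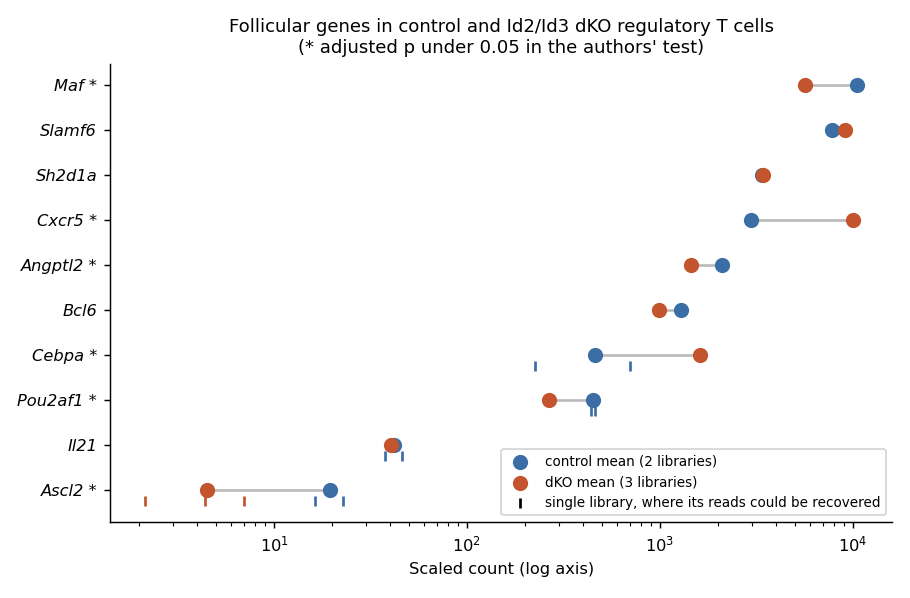
Scaled counts (log axis) of the 10 follicular genes, with large points for the authors' control and dKO means and small bars for single libraries where reads could be recovered. Cxcr5 and Cebpa lie higher in dKO, and Maf, Pou2af1, Angptl2 and Ascl2 lie lower.

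**Figure D2:**
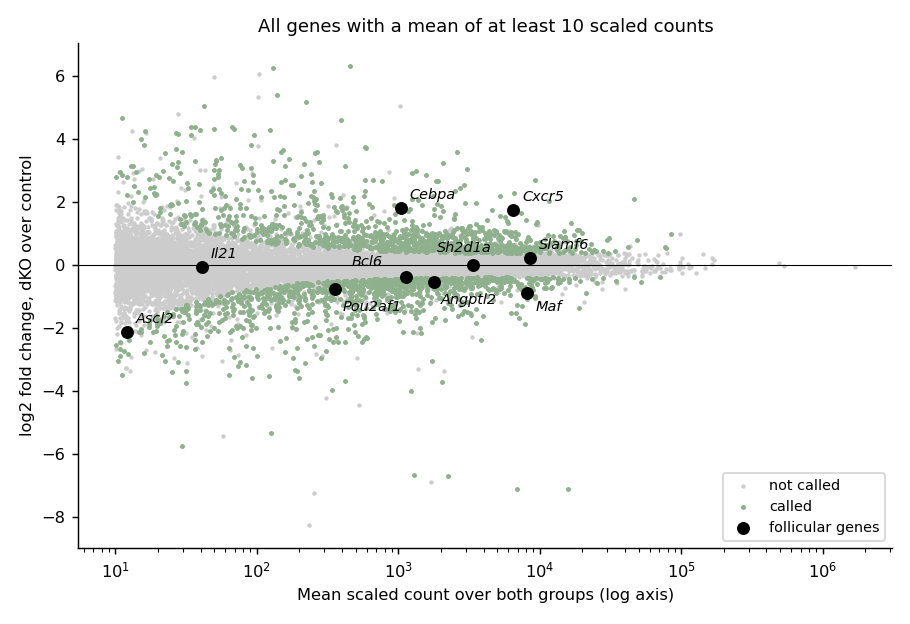
Log2 fold change of dKO over control against the mean scaled count over both groups (log axis) for genes with a mean of at least 10, with called genes in green and the 10 follicular genes in black. Cxcr5 at 1.76 and Cebpa at 1.81 are the highest of the 10, while Sh2d1a lies at 0.01.

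The receptor Cxcr5 (ENSMUSG00000047880, chromosome 9, 44511788 to 44556391, GRCm38, minus strand) had the largest gain in scaled counts among the 10 genes. Its mean was 2967 scaled counts in control and 10017 in dKO, 3.38-fold higher (log2 1.76, DESeq adjusted p 0.0007), as the authors' deposited table gives it. Its control reads had 9 possible sets and are not given per library. A single control library could not exceed 5934 scaled counts, a limit set by the control mean alone. That limit says nothing of the spread between the control libraries. The dKO reads of Cxcr5 could not be recovered, so the spread between the dKO libraries behind the dKO mean is not known. The flanking genes with a mean of at least 10 were not called. Bcl9l, a Wnt pathway cofactor gene that lies 1.4 kb away, had a log2 fold change of -0.29 and the RNA helicase gene Ddx6 one of 0.26, in the authors' deposited table. In the pair Cxcr5 had 35.9 FPKM in the library labelled control and 119 FPKM in the library labelled dKO, 3.31-fold higher. Of the chemokine ligands of follicle and T cell zone, Cxcl13 had 1 control read, and none of the 4 in the list (Cxcl13, Ccl19, Ccl21a and Cxcl12) reached a mean of 10 or passed the DESeq test, with 0 at an unadjusted p under 0.05. Cxcl12 had means of 5.15 in control and 6.67 in dKO, and Ccl21a of 1.76 and 0, in the authors' deposited table.

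Among the transcription factors, Cebpa rose and Maf and Ascl2 fell. Cebpa (ENSMUSG00000034957, chromosome 7, 35119293 to 35121926) encodes C/EBP alpha, best known for directing myeloid differentiation. It had 897 reads in control library A and 246 in control library B, or 697 and 225 scaled counts, and the authors' mean in dKO was 1616. The control libraries thus differed 3.10-fold from each other. Both lay below the dKO mean, but with this control mean a single control library could not exceed 923 scaled counts in any case. The dKO reads of Cebpa could not be recovered, so the spread between the dKO libraries behind the dKO mean is not known. The control mean of Cebpa, 461, lies above the level of 380 below which every gene had 1 possible set of reads, but Cebpa and Pou2af1 each had 1 set, as did 529 of 530 genes between 380 and 500. Of 982 genes somewhat lower, with a control mean of 200 to 380 scaled counts, 7 (0.713%) differed as much between the control libraries, and the median difference over the 982 genes was 1.14-fold. In the authors' deposited table Cebpa had a log2 fold change of 1.81 (3.50-fold, adjusted p 0.0041). Against control library A alone the dKO mean was 2.32-fold higher, and against control library B alone 7.18-fold. In the pair Cebpa had 7.08 FPKM in the library labelled control and 53.3 FPKM in the library labelled dKO, a 7.52-fold difference.

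The genes that flank Cebpa were not called. Slc7a10, an amino acid transporter gene 64.5 kb from Cebpa, had 412 reads in control library A and 101 in control library B, also higher in A. Its mean was 206 scaled counts in control and 191 in dKO (log2 -0.11), and the authors' deposited table gives Cebpg, the C/EBP family gene on the other side, a log2 fold change of 0.17. Of the 6 other C/EBP family genes, Cebpb rose from 382 to 697 scaled counts with a log2 of 0.87 (adjusted p 0.0462), 0 fell and 5 were not called in the authors' deposited DESeq table. At an unadjusted p under 0.05, 1 was higher and 0 were lower. The Cebpb row overlaps another gene. Its control libraries held 440 and 460 reads, a difference in the other direction from that of Cebpa. Whether the Y-linked difference between the control libraries bears on Cebpa was not tested.

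Myeloid markers were read beside Cebpa. None of 12 passed the DESeq test, 2 were higher and 0 lower at an unadjusted p under 0.05, and 6 of the 12 were under 3 scaled counts in both groups. Their summed means were 237 scaled counts in control and 307 in dKO, and within control 204.5 in library A and 269 in library B, the reverse of the order of Cebpa. The 2 that were higher were Cd68 and the receptor gene Csf3r, the latter at 9.17 scaled counts in control and 21.5 in dKO in the authors' deposited table. Over the 5 markers with a mean of at least 10 the median log2 fold change was 0.37. The granule enzyme genes Mpo and Elane, both under that level, had means of 5.72 and 1.76 scaled counts in control and 2.60 and 0.732 in dKO, per the authors' deposited table. The highest myeloid markers were the endosomal protein gene Cd68, at 92.8 and 136, and the integrin gene Itgam, at 73.7 and 95.0, also from the authors' deposited table.

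**Figure D3:**
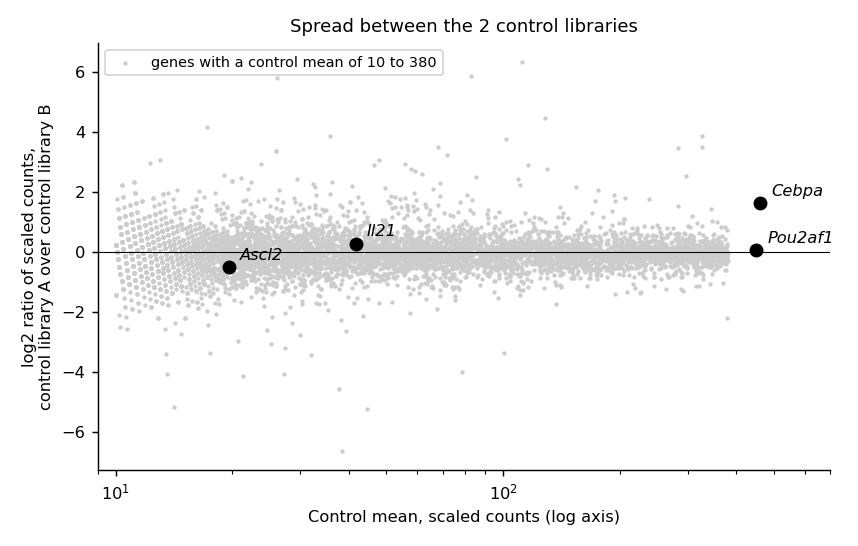
Log2 ratio of scaled counts between control library A and control library B against the control mean (log axis), for genes with a control mean of 10 to 380 (grey) and the 4 follicular genes whose control reads could be recovered (black). Cebpa, at 1.63, lies apart from most genes, while Pou2af1 lies at 0.08.

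Maf (ENSMUSG00000055435, chromosome 8, 115682942 to 115707794) encodes c-MAF, a basic leucine zipper factor that drives Il21 and Il10 in T cells. It had the smallest adjusted p of the 10 genes. Its mean went from 10500.3 scaled counts in control to 5633 in dKO (log2 -0.90, adjusted p 1.86e-10) in the authors' deposited table. An antisense gene overlaps it and was listed at 0 in both groups. In the pair Maf had 71.6 FPKM in the library labelled control and 38.9 in the library labelled dKO, so it was 1.84-fold lower, beside 1.86-fold in the replicated comparison. Among 8 other MAF and BACH genes, 1 rose, 0 fell and 7 were not called in the authors' deposited DESeq table. At an unadjusted p under 0.05, 2 were higher and 0 lower.

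Ascl2 (ENSMUSG00000009248, chromosome 7, 142966822 to 142969264) encodes a basic helix-loop-helix factor that pairs with E proteins and can start Cxcr5 expression in helper T cells. It was the lowest of the 10 genes, with 21 and 25 reads in the control libraries and 2, 4 and 6 in the dKO libraries. These are 16.3 and 22.9 scaled counts in control and 2.15, 4.39 and 6.98 in dKO. The authors' deposited table gave it a log2 fold change of -2.12 and an adjusted p of 0.0466, close to the threshold. In the pair it was under 1 FPKM in both libraries, 0.393 in the library labelled control and 0.109 in the library labelled dKO. Cxcr5 and Ascl2 thus moved in opposite directions.

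Bcl6 (ENSMUSG00000022508, chromosome 16, 23965052 to 23988852), the repressor that defines follicular T cells, did not pass. Its mean was 1281 scaled counts in control and 990.3 in dKO (log2 -0.37, raw p 0.150, adjusted p 0.745) in the authors' deposited table. Its control reads fit 3 sets, 874 and 2057, 1902 and 1184, or 2930 and 311 in libraries A and B. In the pair it had 16.0 FPKM in the library labelled control and 11.2 FPKM in the library labelled dKO. Of 10 genes of BCL6 partners, such as corepressors, 1 rose, 0 fell and 9 were not called in the authors' deposited DESeq table. The histone deacetylase gene Hdac7 rose (log2 0.45 and adjusted p 0.0141 in the authors' deposited table), and its row overlaps another gene. At an unadjusted p under 0.05, 1 partner was higher and 2 were lower.

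Pou2af1 (ENSMUSG00000032053, chromosome 9, 51213690 to 51240079) encodes a lymphoid coactivator of octamer-binding factors that B cells use at high level. It had 596 and 479 reads in the control libraries, or 463 and 439 scaled counts, and a dKO mean of 266. The control libraries differed 1.06-fold, and both were above the dKO mean. The dKO reads of Pou2af1 had 603 possible sets, so the spread between the dKO libraries is not known. In the authors' deposited table the log2 fold change was -0.76, a 1.70-fold lower level, with an adjusted p of 0.0003. The pair had 5.96 FPKM in the library labelled control and 4.74 in the library labelled dKO. Of 4 genes of POU factors, 0 passed the DESeq test and 0 had an unadjusted p under 0.05. The authors' deposited table had log2 values of -0.27 for Pou2f1 and -0.29 for Pou2f2, the octamer-binding partners with most reads. Of the others, Pou2f3 was under 3 scaled counts in both groups, and Pou6f1 is a POU factor that is not known as a partner.

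B cell markers were read beside Cxcr5, Bcl6 and Pou2af1, which B cells express as well. Of 16 markers, 0 rose and 2 fell by the DESeq test, and at an unadjusted p under 0.05 the counts were the same, 0 and 2. The B cell surface marker Ms4a1 had means of 1.76 scaled counts in control and 1.47 in dKO in the authors' deposited table. The MHC class II chaperone gene H2-Ob fell from 1341 to 507 and the surface receptor gene Cd72 from 616 to 289, per the authors' deposited table. The summed means were 3224 scaled counts in control and 2252 in dKO. The other 14 summed to 1267 in control and 1456 in dKO. Leaving out the 2 that were called as fallen shifts the sum towards dKO by construction, so no direction is read from it. Of the 14, Cd79b, a chain of the B cell receptor, had the most (894 and 1006 in the authors' deposited table). Next came the surface receptor gene Cd22 (172 and 266 in the authors' deposited table), and neither was called. Among the 7 markers of plasma cells, Mzb1 (24 and 4 control reads) rose from 11.2 to 905 scaled counts and Pou2af1 itself fell, while 5 were not called in the authors' deposited table. At an unadjusted p under 0.05, 3 were higher and 2 lower in the DESeq test, and the summed means were 4466 in control and 7820 in dKO. The largest of that list was Xbp1, a factor of secretory cells, with 3750 and 6388 (adjusted p 0.156 in the authors' deposited table).

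The signalling proteins of the SLAM family showed no common direction. Slamf6 (ENSMUSG00000015314, chromosome 1, 171917537 to 171943868), a homotypic receptor on lymphocytes, had means of 7822 scaled counts in control and 9158 in dKO (log2 0.23, adjusted p 0.537) in the authors' deposited table. Sh2d1a (ENSMUSG00000005696, chromosome X, 42502453 to 42523697), the adaptor that binds the tails of these receptors, had 3380 and 3411 (log2 0.01, raw p 0.991) in the authors' deposited table. In the pair, Slamf6 had 87.2 FPKM in the library labelled control and 127 in the library labelled dKO, and Sh2d1a 146 and 155. Of 14 other genes of the family and its adaptors, 1 rose, 2 fell and 11 were not called in the authors' deposited table. Slamf7, a receptor of activated lymphocytes, rose from 97.9 to 285 scaled counts (adjusted p 3.15e-07), with 146 and 90 control reads, and its row overlaps another gene. Cd84 and Slamf1, receptors that also bind SAP, fell with log2 values of -0.57 and -0.53 (adjusted p 0.0006 and 0.0025 in the authors' deposited table).

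The secreted proteins were Il21 and Angptl2. Il21 (ENSMUSG00000027718, chromosome 3, 37222759 to 37232618) encodes the cytokine with which follicular helper cells drive B cells. It had 59 and 41 reads in the control libraries, or 45.9 and 37.5 scaled counts, and the authors' mean of 40.3 in dKO lay between them (raw p 0.895). Its dKO reads had 5 possible sets and are not given per library. Il21 stayed under 1 FPKM in the pair, at 0.248 in the library labelled control and 0.481 in the library labelled dKO. An antisense gene that overlaps it had a mean of 1.69 scaled counts in control and 0.366 in dKO. Il4, the other classical cytokine of follicular helper cells, had 122 and 34 control reads and means of 63.0 in control and 59.9 in dKO in the authors' deposited table, and did not pass.

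Angptl2 (ENSMUSG00000004105, chromosome 2, 33216069 to 33247717) encodes a secreted angiopoietin-like glycoprotein. Its mean was 2106 scaled counts in control and 1447 in dKO (log2 -0.54, adjusted p 0.0026) in the authors' deposited table. It lies within Ralgps1, a gene on the other strand with means of 498 in control and 399 in dKO (log2 -0.32, adjusted p 0.324) there, again from the authors' deposited table. No source used here says whether reads were counted by strand, so the reads of these genes may be shared. The pair had 18.5 FPKM of Angptl2 in the library labelled control and 13.5 in the library labelled dKO. None of 6 other angiopoietin-like genes passed the DESeq test (1 higher and 0 lower at an unadjusted p under 0.05). Angptl4 had a log2 fold change of 0.22 and Angptl6 of -0.48 in the authors' deposited table.

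Per kilobase of exon, the order of the genes changed with Cxcr5, Cebpa and Maf. In control the levels, in scaled counts per kilobase, were 3202 for Slamf6, 1274 for Maf, 1238 for Sh2d1a and 1051 for Cxcr5. Below these came 335 for Angptl2, 191 for Bcl6, 176 for Pou2af1 and 175 for Cebpa, and then 13.2 for Il21 and 12.2 for Ascl2. Maf and Sh2d1a, and Bcl6, Pou2af1 and Cebpa, were neighbours that cannot be ordered without an error for each mean. In dKO Cxcr5, at 3547 scaled counts per kilobase, came just after Slamf6 at 3749, Maf stood at 683 and Cebpa at 614, and Ascl2 at 2.80. FPKM values of the pair are also per length, and there Sh2d1a rather than Slamf6 was highest in both libraries. The replicated table takes the length of all exons of a gene, while the pair has 1 RefSeq transcript for each of the 10 genes.

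**Figure D4:**
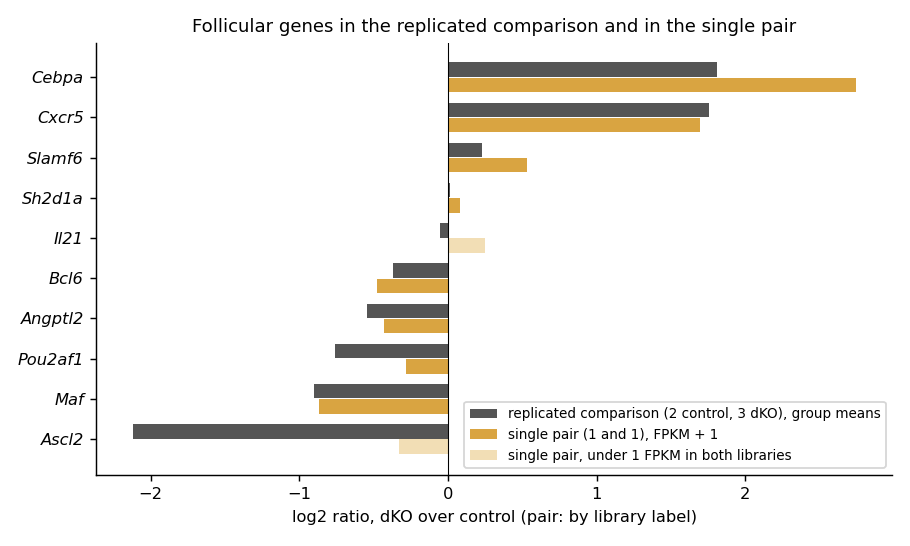
Log2 ratio of dKO over control for the 10 follicular genes, from group means of the replicated comparison (dark bars) and from the single pair by library label with 1 FPKM added (yellow bars, pale where both libraries were under 1 FPKM). The bars point the same way in all genes but Il21, and Cebpa has the longest yellow bar, 2.75.

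In the single pair, 9 of the 10 genes had the same direction as in the replicated comparison, all but Il21. Il21 and Ascl2 were under 1 FPKM, and the other 8 all had the same direction. The same was so for 70.7% of 10354 genes with at least 1 FPKM and a mean of at least 10 scaled counts, and for 91.3% of the 1629 of these that were called in the replicated comparison. With 1 library on each side, the conditions cannot be tested. A log2 ratio of at least 1 in size, with 1 FPKM added, was reached by Cebpa and Cxcr5, both higher in the library labelled dKO, among the 8 follicular genes with at least 1 FPKM. Of all 10533 genes with at least 1 FPKM, 3.06% were that much higher and 3.24% that much lower. Cuffdiff, which compares these libraries and not the conditions, gave a q of 0.0287 for Cebpa and 0.0507 for Cxcr5 in the authors' deposited table. A q under 0.05 was given to 23 of 13193 tested entries, 0.174%.

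In the wider follicular programme, genes were called at about the share seen over all genes. Of 30 other genes of the programme, 2 rose, 3 fell and 25 were not called in the authors' deposited table, with a median log2 fold change of 0.03. At an unadjusted p under 0.05 in the DESeq test, 6 were higher and 3 lower. Among all genes with a mean of at least 10, which 29 of the 30 reached, 6.8% rose and 6.48% fell. Il1r2, a decoy receptor for interleukin 1 that follicular regulatory cells carry, rose from 2162 to 3820 scaled counts (adjusted p 7.06e-05) in the authors' deposited table. P2rx7, an ATP-gated channel gene, fell from 5870 to 3527, the GATA-type repressor gene Trps1 from 382 to 214 and Zfp831 from 4263 to 2900 scaled counts, per the authors' deposited table. Cd200 was the second that rose (log2 0.46, adjusted p 0.0090) and was named for its count. In the pair Il1r2 had 24.2 FPKM in the library labelled control and 127 in the library labelled dKO. Cd200 went the other way there, with 58.3 and 24.5 FPKM. The checkpoint receptor Pdcd1 and the costimulator Icos, hallmarks of follicular T cells, stood at log2 values of 0.02 and -0.11 and were not called in the authors' deposited table. Both were chosen after their values were seen.

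Genes that oppose the follicular programme or that BCL6 represses mostly fell where they were called. Of 15, 1 rose, 6 fell and 8 were not called in the authors' deposited table, and the median log2 fold change was -0.13. All 15 had a mean of at least 10, a level at which 6.8% of genes rose and 6.48% fell, and 4 of the 6 fallen genes do not overlap another gene. S1pr1, the receptor for leaving lymph nodes, fell from 12490 to 6069 scaled counts (adjusted p 3.39e-11), and Klf2, a factor that keeps it expressed, fell from 10559 to 6818 in the authors' deposited table. Il7r, a survival cytokine receptor, fell with a log2 value of -0.70 in the authors' deposited table. The gene that rose was Prdm1, which encodes BLIMP-1, the antagonist of BCL6 (log2 0.80, adjusted p 0.0124 in the authors' deposited table, named for its count). In the pair Il7r was the other way, with 22.2 FPKM in the library labelled control and 39.5 in the library labelled dKO, and S1pr1 had 189 and 86.0.

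Helix-loop-helix genes related to Ascl2 and to the deleted Id genes were described as a family of 16. Of these, 3 rose, 1 fell (Id2, a targeted gene) and 12 were not called in the authors' deposited table. Among all genes with a mean of at least 10, which 9 of the 16 reached, 6.8% rose and 6.48% fell. At an unadjusted p under 0.05 in the DESeq test, 4 were higher and 3 lower. The median log2 fold change was 0.44, or 0.30 over those 9. Bhlhe41, a repressor, had 15 and 10 control reads and rose from a mean of 10.4 to 181 scaled counts (log2 4.12, adjusted p 1.32e-12), per the authors' deposited table. Lyl1 rose from 144 to 428 and the E protein gene Tcf3 from 3194 to 5071, as means in the authors' deposited table. The pair had 0.195 and 4.28 FPKM of Bhlhe41 and 3.22 and 11.996 of Lyl1, in the libraries labelled control and dKO, while Tcf3 had 77.2 and 65.1.

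**Figure D5:**
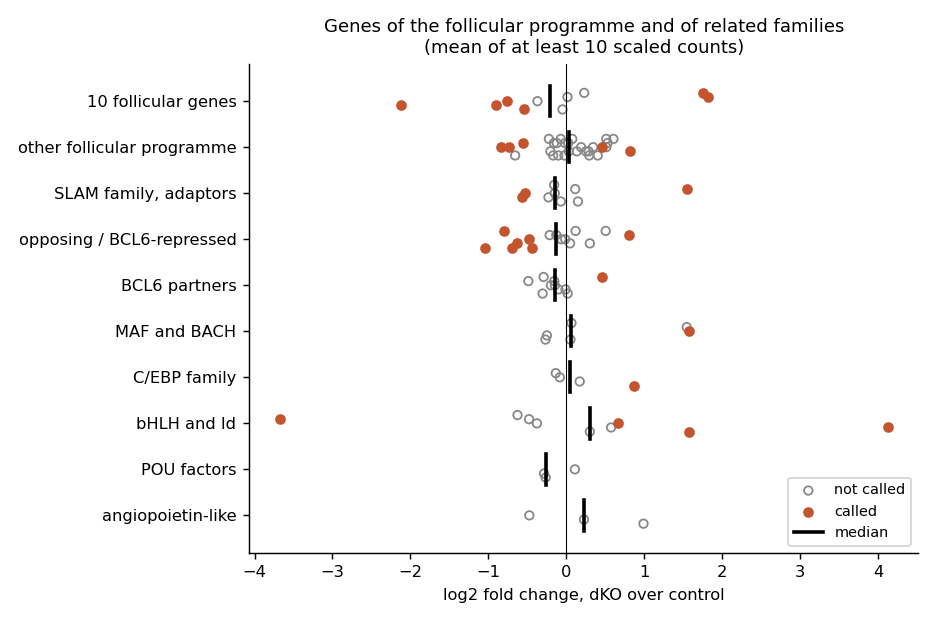
Log2 fold change of dKO over control for genes with a mean of at least 10 scaled counts, in the 10 follicular genes and in 9 related lists, with called genes filled, others open and the median as a black bar. Called genes lie on both sides of 0 among the 10 genes, and 6 of the 7 called genes in the list of opposing and BCL6-repressed genes lie below 0.

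Genes of the sort gate were read in both groups. The authors' deposited table listed Foxp3 at 13481 scaled counts in control and 10942 in dKO (log2 -0.30, DESeq raw p 0.0188, adjusted p 0.188). In the pair Foxp3 had 126 FPKM in the library labelled control and 99.7 FPKM in the library labelled dKO. Cd4 had means of 26431 in control and 32790 in dKO, Cd3e of 21965 and 23378 and Il2ra of 32376 and 32126, in the authors' deposited table. Of 7 regulatory T cell markers 1, Ctla4, passed the DESeq test and rose, and 0 fell (2 higher and 2 lower at an unadjusted p under 0.05). Cd4 was 1 of the 2 higher and Foxp3 1 of the 2 lower. Dendritic cell, cytotoxic and stromal marker lists had 0 of 8, 0 of 6 and 0 of 8 that rose, also 0 each at an unadjusted p under 0.05 by DESeq, and 1 of 8, 0 of 6 and 1 of 8 that fell. At an unadjusted p under 0.05, 2, 0 and 1 were lower. The called falls were in Xcr1 (47.0 to 13.3 scaled counts) and Col1a2 (108 to 25.6), in the authors' deposited table. The second dendritic gene that was lower was Zbtb46 (94.3 to 57.7 in the authors' deposited table). The highest of the cytotoxic list were Cd8b1 (663 and 687) and Eomes (90.7 and 119), in the authors' deposited table. The part of other cell types in the results was not tested beyond these values.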

How the data were processed

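Messenger RNA of 7 libraries was measured. For the numbered libraries (3 dKO, 2 control), the authors deposited a signal per gene and group, here called scaled counts, with log2 fold changes and raw and adjusted p-values per gene. Per the submitters' processing notes, RSEM and DESeq were used on GRCm38 (mm10), without versions. Per the file headers, the deposited values of other kind are a signed fold change and the exon length in bases. The file headers call the signal raw counts, but its values are fractions of reads averaged over a group, so no test per gene was fitted again, and the authors' DESeq test was used as deposited. Recomputed adjusted p-values differed from the deposited ones by at most 0.00124.

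For the pair, FPKM, p-values and q-values per RefSeq transcript were deposited by the authors, made with TopHat 1.4.0 and Cuffdiff (version given as 0.0.6) on mm9, per the submitters' processing notes. The FPKM of a gene is the sum over its entries, and of 27901 entries 26359 matched a gene.

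Group means have 4 decimals and are sums of whole reads times 1 step per library. Steps were fitted by least squares (Python 3.11.15, numpy 2.4.6). Every one of 19807 genes with a control mean above 0 and below 380, and of 13522 with a dKO mean above 0 and below 8, was met by exactly 1 set of reads. In simulated group means of 39179 genes, 100% of 2000 control and 100% of 2000 dKO sets below these limits were recovered correctly. Cebpa and Pou2af1 lie above the control limit, so the simulation did not cover means as high as theirs. Libraries are named A, B and C by falling size factor and cannot be tied to replicate numbers.

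The members and lists were chosen with earlier results of these data known. The 17 lists beside the members held genes that all matched the table. Genes named are the 10 members, Id2, Id3 and, of each list, up to 4 called genes with the smallest adjusted p, or the 2 with the highest mean if none was called. Some genes that this rule selects are not reported here. Others, among them the flanking genes and those given as markers at low level, were chosen after their values were seen. Likeness between gene patterns was not computed from so few values. Changes of scaling, pseudocount, filter and libraries were tried.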

Additional observations from a re-analysis of the deposited data

How the results depend on the processing

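Most values kept their direction and size under the alternatives that could be run. Without genes that overlap another, 2 of the 10 follicular genes rose and 2 fell, since Maf and Angptl2 leave the table. The same choice left 1 risen and 1 fallen gene in the wider follicular programme, 0 risen genes in the SLAM list, 0 among BCL6 partners and 0 in the C/EBP family, and 4 of 6 fallen genes in the opposing list. Fewer genes were tested there. The adjustment over genes with a mean of at least 10 and a threshold of 0.1 kept the counts of 2 and 4. Scaling by the sum of all genes shifted log2 values by -0.04 and turned Sh2d1a to -0.023. A pseudocount of 10 scaled counts brought Ascl2 to -1.03, as its construction does for low genes. Leaving out 1 library gave log2 fold changes of 1.21 (without control library B) to 2.84 (without control library A) for Cebpa and -0.19 to 0.10 for Il21. In the pair, Ascl2 had a log2 ratio of -0.33, or -1.24 with a pseudocount of 0.1 FPKM. edgeR and DESeq2 on recovered reads were not run, because dKO reads per library cannot be recovered above low means. No paired analysis was possible because the group means carry no replicate numbers. Depth limits Ascl2 and Il21. No SD can be had for either group mean of Cxcr5, Maf, Angptl2, Slamf6, Sh2d1a and Bcl6. The same holds for the dKO means of Cebpa, Pou2af1 and Il21, so only Ascl2 had reads recovered in every library.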
